A study of Sus scrofa with 9 samples.

Results

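mir-539 and mir-544 are hairpin precursors of microRNAs (miRNAs) from the imprinted DLK1-DIO3 region, and 3 of their mature products, miR-539-3p, miR-539-5p and miR-544-5p, are described here across the growth and ageing of pig muscle. They are 3 of the 526 miRNA arms measured in the series, 100 of them conserved and 426 putative new ones. Each arm is a mature miRNA cut from one side of a hairpin, 5p or 3p. The 3 arms were taken by name from the conserved miRNAs, and were picked because their levels had not seemed to follow the steep fall of other DLK1-DIO3 arms after the fetal stage. Their levels over the 9 libraries are therefore a description, and no test of them is given. Small RNA came from the longissimus dorsi, the long back muscle, of female pigs of the Jinhua breed. The stages were fetuses labelled E90, newborns (day 0), and pigs of 30 days, 180 days and 7 years, with no treatment named. Single libraries stood for E90, day 0 and day 30, and 3 libraries for each of the later ages, made from 15 pigs whose division among them is not given. A p-value thus measures the spread of libraries alone, perhaps a technical one, and a value at E90, day 0 or day 30 has no replicate check.

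A miRNA is cut from a hairpin and guides silencing proteins to messenger RNAs, mostly by pairing through its seed, bases 2 to 8. The DLK1-DIO3 region holds one of the largest miRNA clusters of mammals, made from the chromosome inherited from the mother. In sheep the callipyge mutation in this region causes overgrown muscles of the hindquarters, so the region is well known in livestock muscle. In bulk tissue, fewer cells that make a miRNA and less of it per cell cannot be told apart.

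The sequences are those listed with the counts. They are shown because the seeds separate the members, and the capitals mark the seed.
miR-539-3p: aTCATACAaggacaatttcttt
miR-539-5p: gGAGAAATtatccttggtgtgt
miR-544-5p: tCTTGTTAaaaggcagattct
The 3 seeds differ from each other. Among 495 arms, the seed of miR-539-3p (TCATACA at bases 2 to 8) was found in 2 (0.404%), miR-539-3p itself and miR-485-3p, another arm of the cluster. No other arm had the seed of miR-539-5p or of miR-544-5p.

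The hairpins show where the arms lie, with the listed arms in capitals.
mir-539: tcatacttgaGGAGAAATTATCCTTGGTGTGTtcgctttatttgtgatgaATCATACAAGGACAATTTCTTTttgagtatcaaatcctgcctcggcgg
mir-544: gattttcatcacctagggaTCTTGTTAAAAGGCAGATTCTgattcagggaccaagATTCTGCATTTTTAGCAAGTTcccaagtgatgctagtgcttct
The last base listed for the 3p arm of mir-544 is not in its hairpin and is left out. Both hairpins are 98 nt long. On the assembly Sscrofa10 mir-539 was listed from 25677 to 25774 and mir-544 from 24202 to 24299, both on the minus strand of a scaffold that is not named, so their starts are 1475 bases apart if the scaffold is the same. Of the 19 conserved precursors listed on an unnamed scaffold, 14 carry names of the cluster and 5 do not, so a shared scaffold was not tested. Folded with RNAfold, the minimum free energy was -34.0 kcal/mol for mir-539 and -36.2 kcal/mol for mir-544. Per nt these are -0.347 and -0.369, between the extremes of -0.675 and -0.211 over 69 conserved hairpins (median -0.409).

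Libraries held 3476614 to 12259667 high-quality reads, and levels are given in RPM, copies per 1000000 of these reads. Intervals are exact 95% intervals that cover counting error only. An arm without an entry is taken to be at or under a floor of 3 copies, which was 0.245 to 0.863 RPM over the libraries. The floor is an assumption, since 5 listed entries lie under it, and bounds built on it share that limit. The copies of all listed miRNAs made up 2.70% of the reads at E90 and 0.147% to 0.322% in the 6 libraries of day 180 and 7 years. Of 8 muscle marker names, only arms listed as miR-1-2-3p, miR-1a-2-5p, miR-208a-3p and miR-208a-5p were measured. miR-133a, miR-133b, miR-206, miR-208b, miR-486 and miR-499 are not analysed here. The 4 measured arms summed to 0.992 RPM at E90, 34.0 at day 0, 14.4 at day 30, 0 to 0.767 at day 180 and 0 to 1.07 at 7 years. Whether the miR-1 entries cover all miR-1 of the muscle is not known. The sums are thus no level of miR-1 as a whole, and the muscle label could not be checked with them. Of 5 blood marker names only miR-223 was measured, at 2.58, 5.59 and 4.03 RPM in the first 3 stages, 2.22 to 7.57 at day 180 and 0.959 to 3.85 at 7 years. The 5 measured arms of epithelial markers summed to 12.7, 3.80 and 10.1 RPM, then 0.958 to 1.96 and 0.641 to 1.07. The part of these cell types in the levels below was not tested.

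In RPM miR-539-3p was low in the fetus, highest in the newborn, and low again in the adult. It stood at 48.8 RPM at E90 (42.9 to 55.3), 513 at day 0 (492 to 534) and 389 at day 30 (369 to 410). It stood at 37.0, 27.4 and 28.8 RPM in the 3 libraries of day 180 and at 26.8, 15.3 and 20.02 in those of 7 years. Day 0 and day 30 were the high libraries, and the other 7 lay together below 50 RPM. From E90 to day 0 the level rose 10.5-fold (9.22 to 12.0), and at day 30 it was 0.759 of that at day 0 (0.709 to 0.812). The mean of day 180 was 31.1 ± 5.20 RPM (SD, n = 3) and that of 7 years 20.7 ± 5.75 (SD, n = 3). In descending order the stages were day 0, day 30, E90, day 180 and 7 years. The last neighbours lay close, since the highest library of 7 years and the lowest of day 180 were at 26.8 and 27.4 RPM, with overlapping counting intervals.

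miR-544-5p fell at each step from the fetus to the oldest pigs. It stood at 510 RPM at E90 (491 to 531), 256 at day 0 (241 to 271) and 152 at day 30 (139 to 165). The libraries of day 180 were at 70.8, 50.3 and 38.9 RPM and those of 7 years at 33.8, 20.7 and 25.1. The levels of the 5 stages did not overlap, and the mean went from 53.3 ± 16.2 RPM at day 180 (SD, n = 3) to 26.5 ± 6.67 at 7 years (SD, n = 3). Day 0 was at 0.501 of E90 (0.467 to 0.538) and day 30 at 0.593 of day 0 (0.534 to 0.658). For both miR-544-5p and miR-539-3p all 3 libraries of 7 years lay below all 3 of day 180. That was so for 26.3% of the 175 arms with enough copies to be tested, while the reverse order was seen in 0.571%. The counting intervals of the highest library of 7 years (29.4 to 38.7) and the lowest of day 180 (34.9 to 43.2) overlapped for miR-544-5p.

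miR-539-5p, the other product of mir-539, went against the picture of miRNAs that remain in adult muscle. It stood at 19.8 RPM at E90 (16.1 to 24.1), 28.9 at day 0 (24.1 to 34.3) and 1.73 at day 30 (0.633 to 3.76). It was listed in day 180 replicate 3 alone of the 6 later libraries, with 3 copies (0.332 RPM). E90 and day 0 were the high libraries, with 100 and 129 copies, and day 30 had 6 copies. Day 0 exceeded E90 1.46-fold (1.11 to 1.91) and exceeded day 30 16.7-fold (7.48 to 46.4). Since day 180 held these 3 copies alone, a fold against it is given only in the last section, to show its dependence on scaling. Per read, E90 was at least 37.0-fold above 7 years, with the mean floor of the 3 libraries as the bound.

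**Figure D1:**
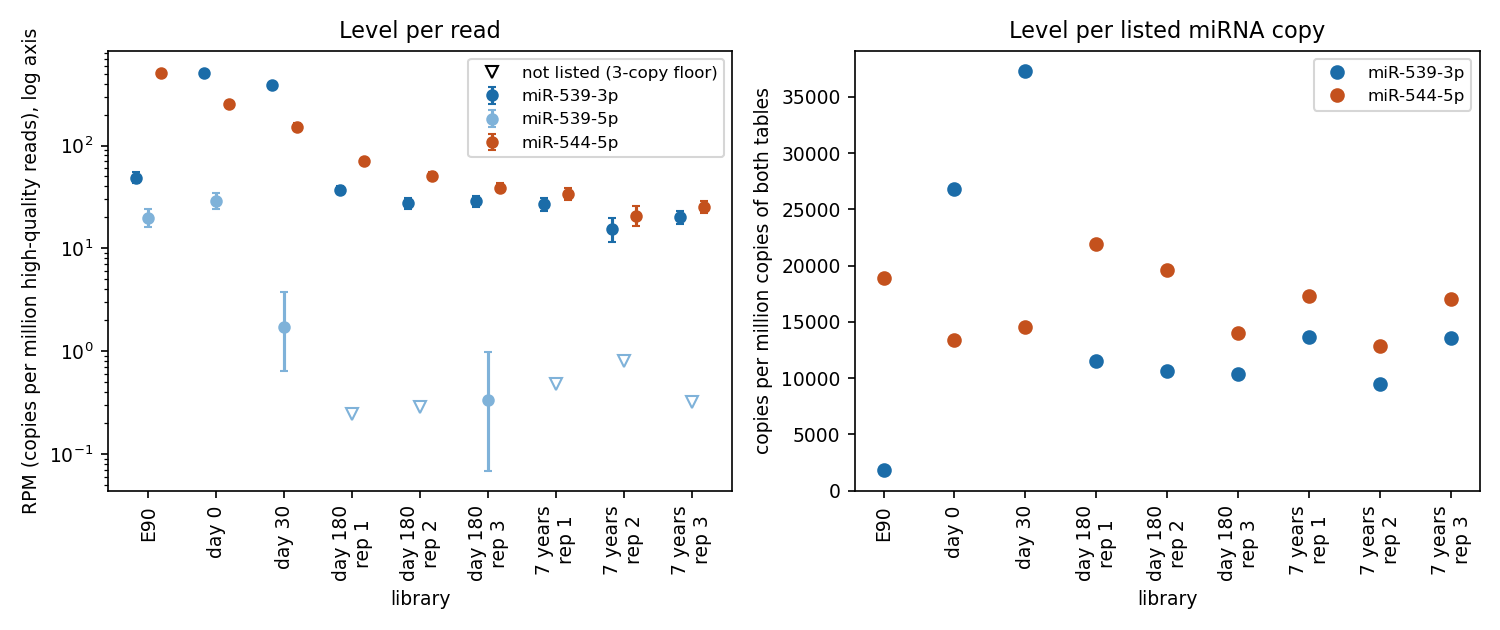
Left, RPM of the 3 arms in each of the 9 libraries on a log axis, with exact 95% counting intervals and open triangles at the 3-copy floor for arms that were not listed. Right, copies of miR-539-3p and miR-544-5p per 1000000 copies of all listed miRNAs: miR-544-5p stays between 12846 and 21956, while miR-539-3p goes from 1807 at E90 to 37326 at day 30.

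The size of these changes depends on what a level is set against, because the listed miRNAs as a whole were a smaller share of reads in older muscle. Per 1000000 copies of all listed miRNAs, miR-544-5p held 18910 copies at E90, 13368 at day 0 and 14566 at day 30. Its copies numbered 21956, 19580 and 14019 in the replicates of day 180, and in those of 7 years 17297, 12846 and 17077. The highest was 1.71 times the lowest, compared with a 24.7-fold range in RPM. The listed copies include those of the cluster itself, 75328 of 136117 at E90 and 4128 of 13820 in 7 years replicate 3. Levels on this scale are thus set in part against the cluster's own arms. Among the 23 conserved arms listed in all 9 libraries, only miR-26b-5p had a narrower range on this scale, and the median range was 16.5-fold. On the same scale miR-539-3p held 1807 copies at E90, 26795 at day 0 and 37326 at day 30. Later libraries held 11484, 10667 and 10384 at day 180 and 13690, 9510 and 13603 at 7 years, so that E90 was the lowest library and day 30 the highest. miR-539-5p held 735 copies on this scale at E90, 1507 at day 0, 166 at day 30 and 120 in day 180 replicate 3, a smaller drop than in RPM.

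The edgeR fit scales each library to the bulk of measured miRNAs (TMM) and its values are descriptions here. Relative to day 180 its log2 fold changes for miR-544-5p were 0.82 at E90 (SE 0.36), 0.16 at day 0 (SE 0.37), 0.02 at day 30 (SE 0.37) and -0.09 at 7 years (SE 0.26). For miR-539-3p they were -1.80 at E90 (SE 0.41), 1.93 at day 0 (SE 0.34), 2.13 at day 30 (SE 0.33) and 0.31 at 7 years (SE 0.26). Scaled by total reads, miR-539-3p was at 0.65 at E90 (SE 0.47) and -0.58 at 7 years (SE 0.34), so its direction at these 2 stages turned with the scaling. Scaling by total reads moved the median log2 fold change of arms listed in both groups by 2.44 (E90), 2.11 (day 0), 1.51 (day 30) and -0.88 (7 years). The rise of miR-539-3p at day 0 and day 30 over day 180 had the same direction under both scalings. For miR-544-5p both gave positive values at E90, day 0 and day 30 and negative ones at 7 years, whereas per listed copy day 0 and day 30 lay below day 180.

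The mir-539 hairpin gave both arms in the fetus and the newborn and nearly only the 3p arm from day 30 on. The 3p arm made up 71.1% of 346 copies at E90 (exact interval 66.0% to 75.8%), 94.7% of 2422 at day 0 (93.7% to 95.5%) and 99.6% of 1359 at day 30 (99.0% to 99.8%). Day 180 replicate 3 had 98.9% of 263 copies. In the other 5 later libraries the 5p arm was not listed, which allows a 5p share of up to 0.656% and 1.04% in day 180 replicates 1 and 2, and of 1.76%, 5% and 1.57% in 7 years replicates 1, 2 and 3. E90 was far below the others and day 0 somewhat below, while day 30 lay within the range of the later libraries. The share does not depend on scaling, but it belongs to the values by which these arms were chosen and is given with no test. Its mean was 99.6% ± 0.659 at day 180 (SD, n = 3) and 100% in each library of 7 years. Over the 3 libraries up to day 30, which are of 3 ages, it was 88.4%, and without E90 97.1%.

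The mir-544 hairpin was read almost entirely from its 5p arm at every stage. Its 3p arm, listed as miR-544a-3p and named here after its values were seen, had 8 copies at E90 and 6 at day 0 and was not listed in the other 7 libraries. The 5p share was thus 99.7% of 2582 copies at E90 and 99.5% of 1150 at day 0. Of 12 cluster precursors with both arms listed, 7 gave mainly the 3p arm and 5 the 5p arm, by copies pooled over all libraries. Single libraries could differ from the pool. mir-411c, counted as 5p, gave 82.8% 3p at E90, and mir-541, counted as 3p, gave 56.8% 5p at day 0. Ordered by the pooled share of the main arm, mir-544 had rank 3 and mir-539 rank 8. The share of the arm that was minor in the pool was lower at day 30 than at E90 in 8 of the 12. Among these 8, mir-544 is not resolved, since the floor allows a 3p share of up to 0.565% at day 30, compared with 0.310% at E90. In mir-655 the minor arm held only 0.0399% of 2507 copies at day 30. The course differed among precursors with hairpins like that of mir-539, named after their values were seen. The 3p share of mir-377 was 63.5% at E90, 54.5% at day 0 and 98.9% at day 30. That of mir-655 was 99.8%, 99.7% and 99.96% at these stages, and that of mir-485 100%, 100% and 97.0%.

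**Figure D2:**
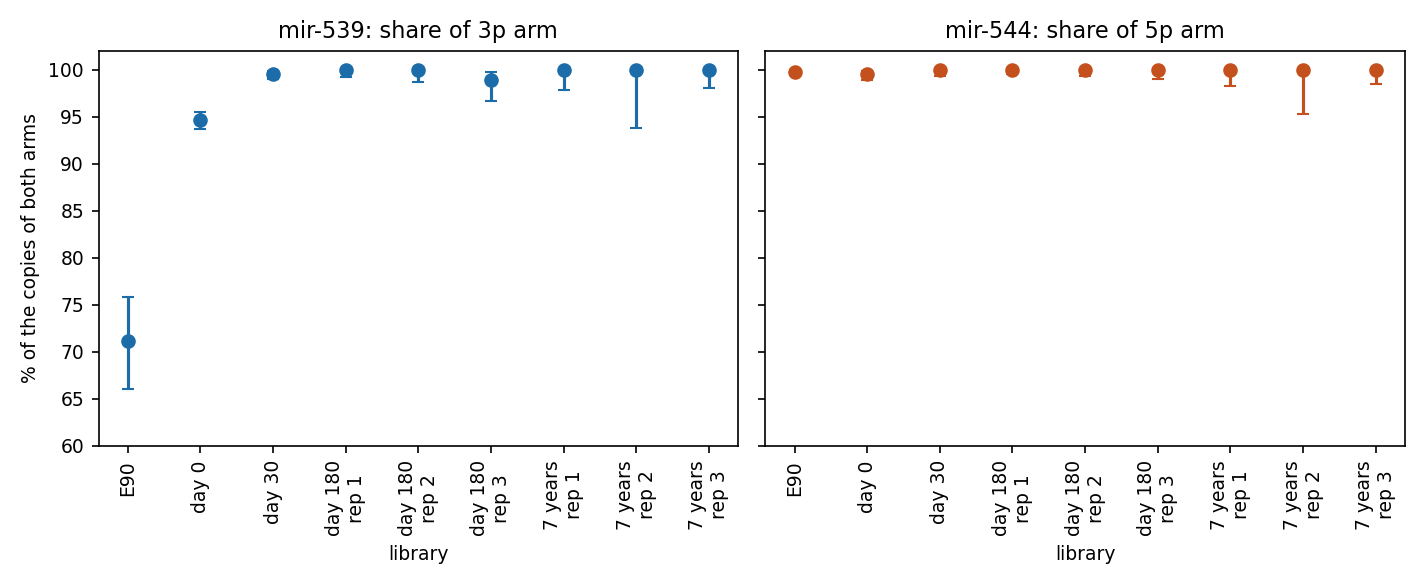
Share of the main arm in the copies of both arms, in percent, for mir-539 (3p arm, left) and mir-544 (5p arm, right) in each library, with exact 95% intervals; the axis starts at 60%. The 3p share of mir-539 is 71.1% at E90, 94.7% at day 0 and 98.9% to 100% from day 30 on, and the 5p share of mir-544 is 99.5% to 100% throughout.

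The start of each mature sequence, which sets the seed, was the same wherever an arm was listed. The most abundant form of miR-544-5p was the same 21 nt in all 9 libraries. That of miR-539-3p was 22 nt long in 8 libraries and 1 base shorter at its 3′ end at day 30. That of miR-539-5p had 22 nt at E90 and day 0 and 23 nt at day 30 and in day 180 replicate 3. All these forms are found letter for letter in their hairpin.

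The seed that miR-539-3p shares with miR-485-3p was carried mostly by miR-485-3p in the fetus and mostly by miR-539-3p at every later stage. The cluster relatives below show how the 3p arms differ around this seed, again with bases 2 to 8 in capitals. miR-485-3p was singled out because of this seed, after its values were seen.
miR-485-3p: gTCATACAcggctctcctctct
miR-487a-3p: aATCATACagggacatccagtt
miR-154b-3p: aATCATACatggttgaccttttt
miR-377-3p: aTCACACAaaggcaacttttgt
miR-655-3p: aTAATACAtggttaacctcttt
In miR-487a-3p and miR-154b-3p the letters TCATAC stand at bases 3 to 8, shifted by 1 base. miR-377-3p and miR-655-3p do not hold them, and each differs from miR-539-3p at 6 of 22 bases. By global alignment the mir-539 hairpin was 69.6% identical to that of mir-655, 66.7% to those of mir-377 and mir-487a and 63.2% to that of mir-485, compared with 49.6% to that of mir-544.

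miR-485-3p stood at 884 RPM at E90, 245 at day 0 and 28.2 at day 30. In the libraries of day 180 it stood at 1.47, 0.767 and 1.55, and it was listed in none of 7 years. miR-539-3p made up 5.23% of the copies with this seed at E90 (exact interval 4.61% to 5.91%), 67.7% at day 0 (66.1% to 69.3%) and 93.2% at day 30 (91.8% to 94.5%). It made up 96.2%, 97.3% and 94.9% at day 180, and all listed copies at 7 years, where up to 1.76%, 5% and 1.57% of miR-485-3p is allowed by the floor in replicates 1, 2 and 3. The order of the 2 arms was thus opposite at E90 and at every later stage. Their sum fell from 933 RPM at E90 to 758 at day 0, 417 at day 30, 32.3 ± 5.44 at day 180 (SD, n = 3) and 20.7 ± 5.75 at 7 years (SD, n = 3). Per 1000000 copies of all listed miRNAs the sum did not fall over the first 3 stages, with 34544 at E90, 39590 at day 0 and 40030 at day 30. On this scale the sum was lower later, at 11939, 10965 and 10943 in the libraries of day 180. Those of 7 years held 13690, 9510 and 13603. Since miR-539-3p was chosen by its levels, no test of the change in order or of the sum is given.

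**Figure D3:**
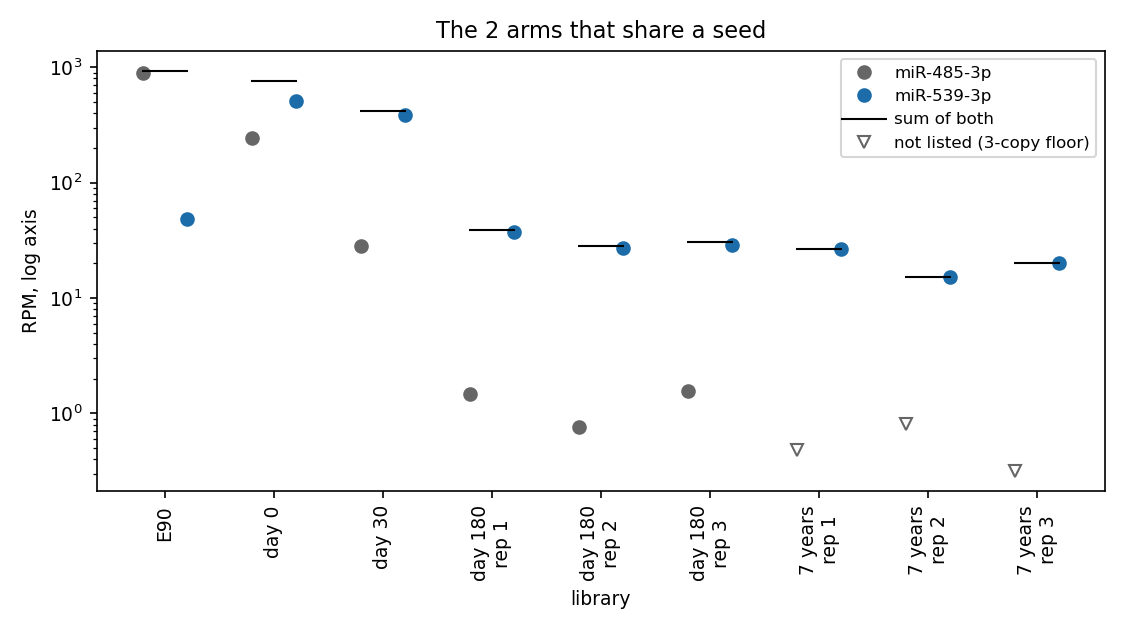
RPM on a log axis of miR-485-3p and miR-539-3p, which share bases 2 to 8, and of their sum in each library; open triangles mark the 3-copy floor where miR-485-3p was not listed. miR-485-3p is the higher arm at E90 (884 against 48.8 RPM) and the lower one from day 0 on, and the sum goes from 933 RPM at E90 to 417 at day 30.

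Set among the 25 other arms of the cluster, miR-539-3p and miR-544-5p were found in all 9 libraries, as were miR-431-5p, miR-655-3p, miR-411c-5p, miR-377-3p and miR-376b-3p. In RPM the other arms were highest at E90 in 20 cases. Both arms of mir-539 were highest at day 0, as were miR-655-5p and miR-665-3p. Per listed copy and with TMM, miR-539-3p was highest at day 30. In 19 of the 25 no library of 7 years listed the arm. From E90 to day 0, 21 of 24 other arms with a ratio were lower and the median ratio was 0.399. The exceptions were miR-411c-5p at 1.83, miR-665-3p at 2.63 and miR-655-5p at 1.25. At E90 miR-665-3p was at the 3-copy floor (0.595 RPM), and miR-655-5p was at 3.77 RPM there and 4.70 at day 0. The place of these last arms above E90 thus rests on few copies. From E90 to day 180 miR-544-5p fell 9.57-fold and miR-539-3p 1.57-fold in RPM, compared with a median of 87.5-fold over 24 other arms, of which 9 are lower bounds. The ratio was smaller than that of miR-539-3p in miR-411c-5p alone, at 0.136. It was near that of miR-544-5p in miR-431-5p (7.29) and miR-377-3p (10.5), which were also listed in all 9 libraries. The contrast with the median follows from the choice of the members, which were picked for lacking a steep fall after E90. The third member, miR-539-5p, fell more steeply than the other members, to 3 copies in all of day 180. Some arms behind the median also lay near the floor at day 180, such as miR-376d-3p at 0.288 RPM. From day 180 to 7 years miR-544-5p fell 2.01-fold and miR-539-3p 1.501-fold, and the median of 12 other arms was 2.44-fold, of which 6 are bounds.

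The nearest listed neighbour was mir-655, whose start is 1146 bases from that of mir-544 and 2621 from that of mir-539. miR-655-3p stood at 1994 RPM at E90, 1550 at day 0 and 721 at day 30, then 16.2 ± 0.229 at day 180 (SD, n = 3) and 8.63 ± 0.831 at 7 years (SD, n = 3). It was above miR-544-5p up to day 30 and below it at both later ages. In edgeR it was higher than day 180 at E90 (log2 fold change 4.47, SE 0.28, adjusted p = 1.16e-05). The minor arm miR-655-5p had 3.77 RPM at E90, and miR-487a-3p, from a precursor whose start is 5246 bases from that of mir-539, had 6.94. Neither was listed at day 180 or 7 years. mir-381, mir-487b and mir-889, which lie near mir-539 in the human cluster, are not analysed here.

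**Figure D4:**
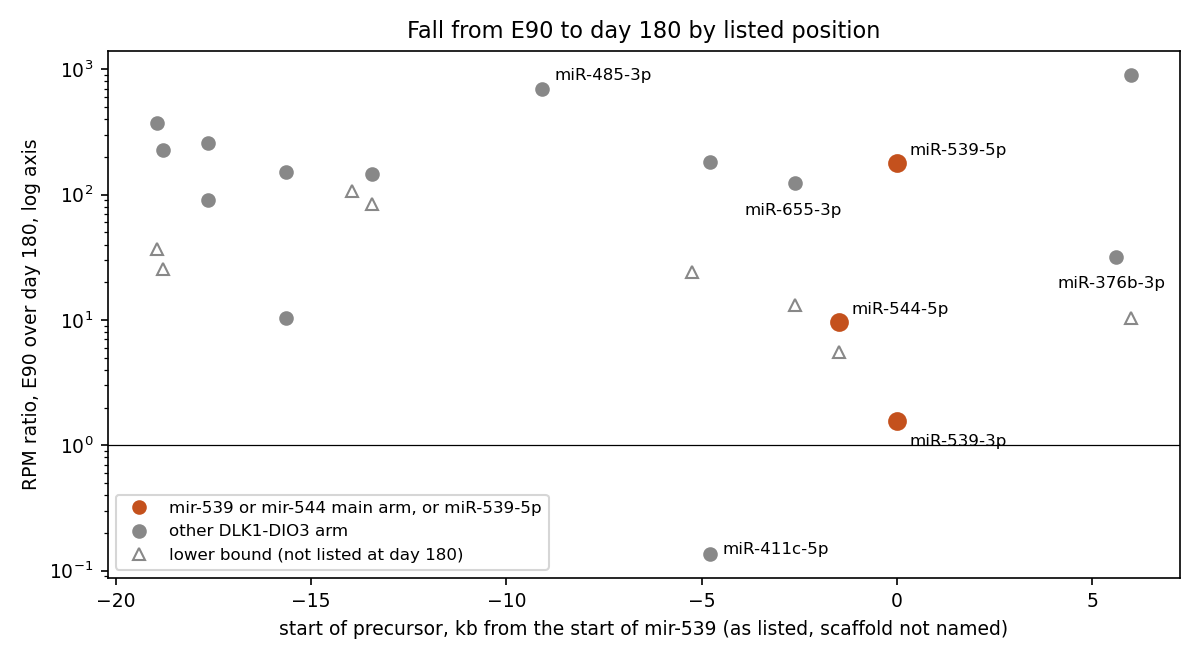
RPM at E90 divided by mean RPM at day 180, on a log axis, for the arms of cluster precursors listed on an unnamed scaffold, by the distance in kb of the precursor's start from that of mir-539; open triangles are lower bounds for arms not listed at day 180. miR-539-3p (1.57) and miR-544-5p (9.57) lie below their neighbour miR-655-3p (123), and miR-411c-5p (0.136) lies below 1.

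The other cluster arms were tested against day 180 in edgeR, where 22 of the 25 had enough copies. At E90 10 were higher, 1 was lower and 11 were not called, while 13.7% of all 175 tested arms were called, 6.86% higher and 6.86% lower. At day 0 there were 8 higher, 1 lower and 13 not called, beside 10.9% of all arms called, 6.86% higher and 4% lower. At day 30 there were 6 higher, 1 lower and 15 not called, beside 8.57% of all arms called, 5.14% higher and 3.43% lower. The lower arm was miR-411c-5p each time. At 7 years 5 arms fell (miR-409-3p, miR-485-3p, miR-411c-3p, miR-412-5p and miR-431-5p) and 17 were not called, beside 3.43% of all arms. Arms not listed at day 180 could enter the test only through other stages, so no median over the 22 is given. The same holds for arms listed but low there, such as miR-376d-3p (mean 0.288 RPM) and miR-431-3p (0.177), both called higher at E90 and day 0. The counts of higher arms thus depend in part on how arms entered the test and are a description. The lone libraries of the 3 early stages were taken to vary as the later replicates do. At 7 years 1 arm was called without day 180 replicate 1, day 180 replicate 3 or 7 years replicate 2, and 3 without 7 years replicate 1, and at day 30 4 without day 180 replicate 3.

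The cluster arms with the highest mean RPM over the 9 libraries, to which the early ones add most, were miR-431-5p, miR-409-3p, miR-655-3p and miR-411c-5p. In all 6 libraries of day 180 and 7 years miR-544-5p had rank 3 and miR-539-3p rank 4 among the cluster arms. miR-409-3p fell from 4799 RPM at E90 to 405 at day 0 while miR-539-3p rose, and no library of 7 years listed it. miR-431-5p was at 4527 and 3931 RPM at E90 and day 0, and at 158 ± 41.5 at 7 years (SD, n = 3). miR-411c-5p had the opposite course, from 51.0 RPM at E90 to 462 ± 176 at 7 years (SD, n = 3). Of the copies of all 28 cluster arms, miR-544-5p held 3.42% at E90, 3.30% at day 0, 2.84% at day 30, 4.61% ± 1.14 at day 180 (SD, n = 3) and 4.13% ± 1.495 at 7 years (SD, n = 3). miR-539-3p held 0.327%, 6.62%, 7.28%, 2.69% ± 0.236 and 3.23% ± 1.27 at the same stages.

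Arms with a course like those of the members were sought by the correlation of log2(RPM + 1) over the 9 libraries, among arms listed in at least 5. miR-544-5p was most like miR-376b-3p of the same cluster (r = 0.991), which fell from 207 RPM at E90 to 2.50 ± 0.515 at 7 years (SD, n = 3), then miR-6529-3p (0.987) and miR-449a-5p (0.978). Its 9 libraries stood in the same order as those of its neighbour miR-655-3p (rank correlation 1). miR-539-3p was most like miR-1983-3p (r = 0.923), which was at 16.1 RPM at E90, 30.0 at day 0 and 52.6 at day 30, then miR-96-5p (0.923) and miR-2904-3-3p (0.913). miR-539-5p was most like miR-377-5p of the cluster (r = 0.988), then PN-53138199-5p (0.983) and miR-590-3p (0.981). Between the 2 arms of mir-539 the correlation was 0.680, and between miR-539-3p and miR-544-5p it was 0.698. The libraries share the fall of all listed miRNAs with age, and of the 3 arms named for each member rank correlation put 0, 1 and 1 among its first 3, for miR-539-3p, miR-539-5p and miR-544-5p. A pseudocount of 0.1 RPM kept 3, 0 and 1, so those named for miR-539-5p and miR-544-5p depend on it.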

How the data were processed

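Per the labels' protocols, RNA of 10 to 40 nt was cut from a gel and read by Illumina sequencing (Genome Analyzer II). The deposited values are counts, the copies of each miRNA in each library, with its most abundant sequence, per the file headers. The headers also give high-quality reads and place precursors on Sscrofa10. Neither aligner nor miRNA caller is named in what was used here. No library was a duplicate: replicates differed beyond counting error. Empty cells (46.2% of conserved and 76.1% of putative new ones) were counted as 0. Putative new entries alike in sequence and values were merged, leaving 395.

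Tests used edgeR 4.0.16 in R 4.3.3, with TMM factors on high-quality reads, filterByExpr (minimum count 10, total 15), a robust quasi-likelihood fit of 9 libraries with a term per stage, and Benjamini-Hochberg adjustment (threshold 0.05). The fit was tested on simulated counts. The permutation test planned for the arm share is not reported, since the share is among the values used to choose the arms. Exact intervals came from scipy 1.17.1, and hairpins were folded with ViennaRNA 2.7.2 and aligned with Biopython 1.88. DESeq2 1.42.0 served in alternatives.

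The members, lists and tests were chosen with earlier results of these data known. Named arms were the members, the listed neighbours of both precursors, the 4 most abundant cluster arms and the 3 arms most like each member. Exceptions are marked.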

Additional observations from a re-analysis of the deposited data

How the results depend on the processing

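Counts of the 22 tested other cluster arms that were called moved with the setting. In the order E90, day 0 and day 30 they were 11, 9 and 7 in the fit reported, and 18, 17 and 17 with total reads in place of TMM. DESeq2 size factors gave 17 at E90 and 15 at day 0, DESeq2's Wald test 17 at E90, and empty cells set to 2 copies 20 at E90 and 15 at day 0. At 7 years, where the fit reported gave 5, the count was 9 with total reads, 10 with conserved miRNAs alone, 2 with empty cells set to 2 copies, and 1 in a fit of only the 6 libraries compared, where 6 of these arms were tested. Leaving out a replicate gave 1 to 5 calls at 7 years, 9 to 12 at E90, 6 to 9 at day 0 and 4 to 8 at day 30.

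Same-numbered libraries of day 180 and 7 years did not deviate together (correlations -0.013, -0.149 and -0.153). Libraries of unlike number gave -0.083 to 0.192. With 3 libraries per age such correlations cannot exclude a pairing. With the replicate number as a block, 0 of the 6 arms were called in edgeR (3 at an unadjusted p under 0.05). The 3p share of mir-539 was 0.380 percentage points higher at 7 years than at day 180, a difference of means that such a block cannot change.

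That share turned to -1.12 points with empty cells set to 2 copies, and went from 0 to 0.570 points without one replicate. Up to day 30 against later, the difference of -11.4 points became -10.2 with empty cells set to 2 copies and -16.9 to -2.69 without one library.

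Levels of miR-539-3p against day 180 turned sign at 7 years (log2 ratio 0.18 per listed copy and 0.31 with TMM, compared with -0.59 in RPM) and at E90 (-2.59 and -1.80, compared with 0.65). Per listed copy miR-544-5p was at -0.47 at day 0 and -0.35 at day 30, compared with 2.26 and 1.51 in RPM. DESeq2 size factors gave miR-539-3p 0.31 at 7 years and 0.13 at E90. For miR-539-5p the log2 ratio to day 180, which rests on 3 copies there, was 7.48 at E90 in RPM, 4.201 per listed copy and 4.85 with TMM. The cause of these shifts was not tested. After day 30 miR-539-5p lies at or under the 3-copy floor in each library, so its level there is not resolved.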
